A study of Drosophila melanogaster with 39 samples.

Results

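Single heads of male *Drosophila melanogaster* were chosen by their level of Hr38 transcript: heads were ordered within each group of the study, and those above the middle of each group were compared with those below it. Levels are in CPM, a gene's count per M (megacount) of the total count of its library. The middle head of each group of odd size was left out. Of 39 labelled heads, 37 had a column of counts, 3 were middle heads, and 34 entered the comparison. The 17 heads of the upper ranks are called high-Hr38 heads here and the other 17 low-Hr38 heads. The heads were selected on measured Hr38 values, so Hr38 itself is described without a test, and the comparison is an association over heads, not the effect of a treatment.

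Hr38 encodes the fly member of the NR4A family of nuclear receptors. NR4A genes and Egr genes, of which sr (stripe) is the fly member, are transcribed within minutes of strong neuronal firing, without the need for new protein, and are therefore used as markers of recent activity. In the fly brain Hr38 and sr transcripts rise after stimulation of neurons, and calcium entry, cAMP, protein kinase A and ERK signalling lie upstream of many such genes. Hr38 also takes part in ecdysone signalling and in carbohydrate storage, so its level is not set by neurons alone.

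The study sequenced polyadenylated RNA from heads of adult flies of the genotype Cantonized w1118, one head per library, and asked what distinguishes flies by place preference. The 5 groups were naive Mid (7 heads), naive High (7), shocked Mid (8), shocked High (6) and shocked Low (9), where Mid, High and Low are classes of place preference. The treatment text gives electric shocks of 60 V for 5 min, a behavioural test at 1.5 h and freezing at 2.5 h, in the same words for naive and shocked flies, so the titles alone separate them. All groups share the genotype, the sex and a single batch date, and the extraction text calls the libraries nuclear RNA-seq although total RNA was extracted.

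Libraries held 5.01 to 11.32 M counts. High-Hr38 heads had a median of 7.85 M (6.06 to 9.17 M) and low-Hr38 heads a median of 7.39 M. Between 11399 and 12344 genes were detected per head. No 2 libraries of a group were copies, since the chi-square per gene was 7.94 or more over 121 pairs. Markers of a head were present in all of them: ninaE, the major rhodopsin, was at 33060 to 49590 CPM in high-Hr38 heads and 26360 to 49490 CPM in low-Hr38 heads. The neuronal gene elav was at 117 to 196 CPM and 87.2 to 173 CPM, and the glial gene repo at 45.4 to 78.6 CPM and 35.7 to 72.1 CPM.

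Hr38 (FBgn0014859) lies on the minus strand of chromosome arm 2L, from 20683462 to 20714588 in dm6, with 7704 bases of exon. High-Hr38 heads had a lowest, median and highest value of 48.9, 64.6 and 94.5 CPM, and low-Hr38 heads of 27.6, 42.3 and 64.6 CPM. The means were 65.3 ± 12.3 CPM (SD, n = 17) and 44.3 ± 10.1 CPM (SD, n = 17). The values of the pooled sets overlap because the ranking was made within groups. Each value rests on 206 to 692 reads.

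The spread of Hr38 differed between groups. Naive Mid heads averaged 65.8 ± 13.8 CPM (SD, n = 7) and naive High heads 56.45 ± 22.1 CPM (SD, n = 7). Shocked Mid heads averaged 45.1 ± 12.8 CPM (SD, n = 8), shocked High heads 51.5 ± 6.40 CPM (SD, n = 6) and shocked Low heads 57.3 ± 10.4 CPM (SD, n = 9). The mean of the high-Hr38 heads was 1.84 times that of the low-Hr38 heads in naive High and 1.20 times in shocked High, the widest and the narrowest contrast of the 5 groups. Naive High held both the lowest head of all, at 27.6 CPM, and the highest, at 94.5 CPM.

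Heads next to the dividing line were close in several groups. In naive High the nearest heads above and below it had 52.2 CPM (95% exact Poisson interval 46.6 to 58.2) and 51.5 CPM (46.6 to 56.7). In shocked High they had 53.4 CPM (48.7 to 58.3) and 51.6 CPM (46.9 to 56.6). In naive Mid they had 69.4 CPM (63.7 to 75.6) and 64.6 CPM (58.9 to 70.6), and in shocked Low 60.8 and 54.5 CPM. Only in shocked Mid did the intervals of the neighbours not overlap, at 48.9 CPM (44.1 to 54.0) and 39.3 CPM (35.3 to 43.7). These intervals cover counting error only.

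**Figure D1:**
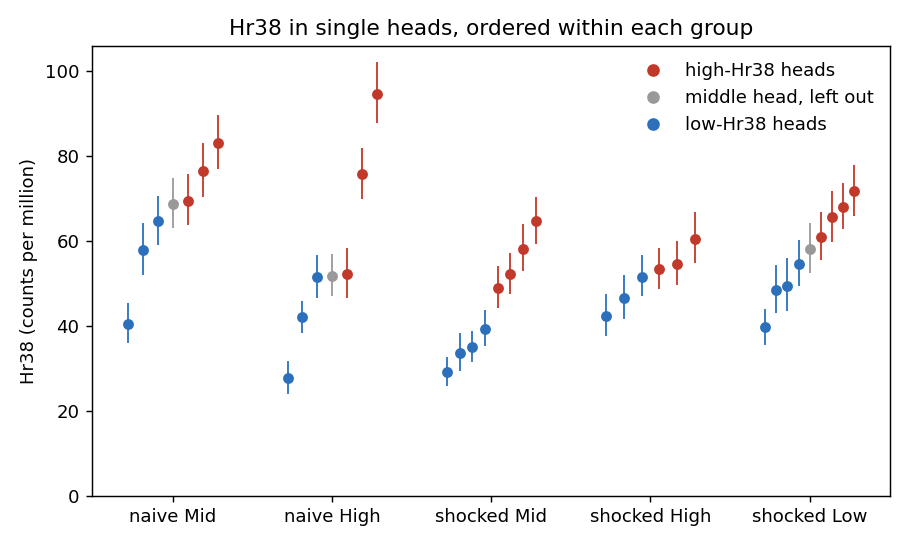
Hr38 in CPM for each of 37 heads, ordered within the 5 groups; points are heads and bars are 95% exact Poisson intervals of the count. Red heads are high-Hr38, blue heads low-Hr38 and grey heads the 3 middle heads left out; the range is widest in naive High, from 27.6 to 94.5 CPM.

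Genes that follow Hr38 were many and their differences were small. In high-Hr38 heads 11 of 20 pan-neuronal, 2 of 23 monoamine and 0 of 27 neuropeptide transcripts were higher, against 2.6% of all tested genes. These lists differ in exon length. Of the neuropeptide genes, 23 were under 2000 bases, a class in which 5 of 4921 tested genes were higher. Of 11 pan-neuronal genes over 5000 bases, 7 were higher, against 14.65% of all tested genes of that length. On the other side, 70 of 83 cytosolic ribosomal protein transcripts and 3 of 25 antimicrobial peptide and Bomanin transcripts were lower, against 1.97% of all tested genes. In edgeR's quasi-likelihood test with group as a block and Benjamini-Hochberg adjustment, 468 of 10246 genes passed at 0.05 (4.57% of those tested). Of these, 266 were higher (2.6%) and 202 lower (1.97%) in high-Hr38 heads. The higher genes differed by 1.08-fold to 2.30-fold with a median of 1.15-fold, and 246 of them were higher in all 5 groups. The lower genes were at 0.398 to 0.911 of the level in low-Hr38 heads, with a median of 0.833. In all 5 groups 177 of them were lower. Both sets were called over these same 5 groups pooled, so shared signs are in part built in and are no replication. The share of such signs over all tested genes is not given here. The median log2 difference over all tested genes was -0.02. With RLE size factors in the same test, 364 genes were higher (3.55%) and 166 lower (1.62%). In DESeq2, which differs in both test and size factors, 445 were higher (4.34%) and 212 lower (2.07%).

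The number of calls rested on a few heads and on the pooling of all groups. In edgeR no gene passed in the naive heads alone or in the shocked heads alone (1478 and 1151 genes at an unadjusted p under 0.05), and leaving out 1 head gave between 174 calls (without naive High 7) and 786 calls (without shocked High 6). Without naive High 1 there were 183 calls, without shocked High 2, 281, without shocked High 3, 244, without shocked Low 8, 292, and without shocked Low 9, 246. Without both naive High heads at the ends of the Hr38 range, 40 genes were higher and 40 lower (0.386% each).

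Among genes known to respond to neuronal activity, sr was the only one that passed. The list of such genes, chosen with earlier results of these data known, had 12 tested members, and 1 was higher and 0 were lower. Of all tested genes, 2.6% were higher and 1.97% lower. The 1 call, sr, has 8113 bases of exon, and 14.65% of all tested genes over 5000 bases were higher. The list's median log2 difference was 0.05, against -0.02 for all tested genes. Of its 12 members 8 had positive values, against 4504 of all 10246 tested genes. sr (FBgn0003499, 3R, 18090803 to 18135583) encodes a zinc-finger transcription factor of the Egr family, which in the fly also specifies tendon cells. Its lowest, median and highest values were 14.4, 26.7 and 37.3 CPM in high-Hr38 heads and 17.3, 20.4 and 28.4 CPM in low-Hr38 heads. The sets overlapped, and the lowest value of all belonged to a high-Hr38 head, shocked Mid 6. sr was higher by 0.34 on the log2 scale (SE 0.08; adjusted p = 0.0148, edgeR's quasi-likelihood test), with positive values in 5 of 5 groups: 0.32 in naive Mid, 0.61 in naive High, 0.11 in shocked Mid, 0.47 in shocked High and 0.28 in shocked Low. Ordered by p, it stood at place 71 of the tested genes, and no other gene of the list stood nearer the top.

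The other 11 activity-regulated genes did not pass. Arc1 and Arc2, which encode capsid-forming proteins related to retrotransposon Gag, had log2 differences of -0.12 (adjusted p = 0.615) and -0.20 (adjusted p = 0.302). The AP-1 subunit genes kay (Fos) and Jra (Jun) had 0.07 and -0.09, and cbt, a Krüppel-like factor gene, had 0.04. Arc1 spanned 1092 to 2993 CPM in high-Hr38 heads and 1054 to 2994 CPM in low-Hr38 heads, nearly the same range. The remaining members were CG13055 at 0.28, CG11221 at 0.14, CG8910 at 0.10, CG17778 at 0.06, CG14186 at 0.01 and CG13868 at -0.20. The errors of these genes differed. CG14186 had an SE of 0.04, so a difference the size of that of sr lies far outside its error. The SE was 0.14 for CG13055, 0.12 for Arc1, 0.11 for Arc2 and CG13868, and 0.10 for cbt. It was 0.07 for CG11221 and CG17778, and 0.05 for kay, Jra and CG8910. For CG13055 a difference the size of that of sr lies within the error.

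Of 20 tested genes of calcium, CREB and ERK signalling, 6 were higher and 0 lower, against 2.6% of all genes higher, and the list's median log2 difference was 0.14. All 6 are among its 11 members of over 5000 bases, a length class in which 14.65% of all tested genes were higher. Pka-C1, the catalytic subunit of protein kinase A, had 212, 254 and 298 CPM (lowest, median, highest) in high-Hr38 heads and 174, 225 and 251 CPM in low-Hr38 heads. The 2 ranges overlapped in part, and 16 of 17 high-Hr38 heads lay above the mean of the low-Hr38 heads. The difference was 0.21 (SE 0.05; adjusted p = 0.0227, edgeR's quasi-likelihood test). The adenylyl cyclase gene rut, required for olfactory learning, rose by 0.19, and the calcium channel genes Ca-alpha1D, Ca-alpha1T and cac by 0.22, 0.25 and 0.22. The transcription factor gene Mef2 rose by 0.13. The CREB gene CrebB (0.04), its coactivator gene Crtc (0.19, adjusted p = 0.0712) and CaMKII (0.21, adjusted p = 0.169) did not pass. The list's 6 calls became 1 without naive High 1, naive High 7 or shocked Low 9, 3 without shocked High 2 or shocked High 3, 10 without shocked High 6, and 0 in edgeR without both naive High 1 and naive High 7 (8 at an unadjusted p under 0.05). With the pan-neuronal score in the fit its median was -0.03, with 13 of 20 negative, against 5515 of all 10246 tested genes.

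Nuclear receptor and ecdysone response genes gave 2 higher and 0 lower of 20 tested, against 2.6% of all genes higher. The median was 0.09. The list joins nuclear receptor genes, the family of Hr38, with other ecdysone response genes such as br. Of its 10 members over 5000 bases 1 was higher, against 14.65% of all genes of that length. ftz-f1, a nuclear receptor gene, rose by 0.19 (SE 0.05) and br, an ecdysone-induced zinc-finger gene, by 0.29 (SE 0.08). EcR, the ecdysone receptor gene, had 0.16 (adjusted p = 0.235) and its partner usp -0.05. The list had no call in edgeR without naive High 1, naive High 7 or shocked High 3, 1 without shocked Low 9, and 4 without shocked High 6.

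Among genes of glycogen and amylase, 2 of 10 were lower, against 1.97% of all genes, with a list median of -0.22. These were the branching enzyme gene AGBE (-0.25, SE 0.07) and the phosphoglucomutase gene Pgm (-0.29, SE 0.09). Both calls were fragile: with each head left out in turn, AGBE passed in 19 of 34 fits (adjusted p up to 0.0776) and Pgm in 9 of 34 (adjusted p up to 0.0998). Amy-p, an amylase gene, had -1.15 (adjusted p = 0.0791), with a median of 2.31 CPM in high-Hr38 heads and 8.18 CPM in low-Hr38 heads. The exons of Pgm overlap those of Strump, and it is not known here whether counting used strand. The same doubt holds for NimB2, PGRP-SD, RpL18, RpL3, RpL23A, Rack1, rut, Ca-alpha1D, ftz-f1, Jra, CG8910, CG6700, CG31708, CG43778, CG18643, Adgf-A and CG33108, whose exons overlap another gene's, and for Syt1, which overlaps a transposable element.

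General neuronal genes, which serve synapses and firing in most neurons, were higher in number. Of 20 tested, 11 were higher and 0 lower, against 2.6% of all genes higher. All 20 had positive values, and the median was 0.19. Of the list's 11 members over 5000 bases 7 were higher, against 14.65% of all tested genes of that length. Of those 1379 genes of that length, 1184 had positive values. cpx, which encodes the synaptic fusion clamp complexin, had 2107, 2383 and 2709 CPM in high-Hr38 heads and 1580, 2022 and 2329 CPM in low-Hr38 heads. All 17 high-Hr38 heads lay above the mean of the low-Hr38 heads, though the ranges overlapped. cpx differed by 0.25 (SE 0.06; adjusted p = 0.0144, edgeR's quasi-likelihood test). The calcium sensor gene Syt1 rose by 0.25, the active-zone gene brp by 0.23, the GABA receptor gene Rdl by 0.26 and the sodium channel gene para by 0.26. Syn, Appl, futsch, VAChT, Rab3 and nSyb also passed. elav had 0.23 and adjusted p = 0.0618. The 11 calls became 6 without naive High 1, naive High 7, shocked High 2, shocked Low 8 or shocked Low 9, and 7 without shocked High 3. CPM is a share of the library, so these values do not show that the amount of neuronal RNA itself was greater. In these whole heads, more neurons and more RNA per neuron in high-Hr38 heads cannot be told apart either, and neither was tested.

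The summed level of the pan-neuronal list was 10530 to 14950 CPM in high-Hr38 heads (median 12830) and 9067 to 12930 CPM in low-Hr38 heads (median 10910). With the list's mean log2 CPM added to the fit, no gene passed in edgeR (492 genes at an unadjusted p under 0.05) and sr had a log2 difference of 0.19 (adjusted p = 0.964).

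Genes of monoamine signalling gave 2 higher and 0 lower of 23, against 2.6% of all genes higher, with a median of 0.10. Of its 11 members over 5000 bases 1 was higher, against 14.65% of all genes of that length, so the count does not set the list apart. DopEcR encodes a receptor for dopamine and ecdysteroids, and it rose by 0.20 (SE 0.05), from a median of 653 CPM in low-Hr38 heads to 798 CPM in high-Hr38 heads. Octbeta1R, an octopamine receptor gene, rose by 0.24 (SE 0.06), a call lost without naive High 7 (adjusted p = 0.0544). The dopamine receptor gene Dop1R1 had 0.25 and adjusted p = 0.0517. Of neuropeptide genes, 0 of 27 passed in edgeR, 1 had an unadjusted p under 0.05, and the median was -0.01. Of these genes, 23 were under 2000 bases, a class in which 0.10% of all tested genes were higher. The edgeR count was also 0 for glial (14 genes, median 0.05), muscle (18, 0.04), antennal (14, -0.06), heat shock (13, -0.03) and circadian clock genes (12, 0.03). Of 25 photoreceptor genes, 2 were higher, against 2.6% of all genes. These were rdgA, a diacylglycerol kinase gene (0.20, SE 0.05), and rdgB, a phosphatidylinositol transfer protein gene (0.19, SE 0.05). Both are among the list's 8 members over 5000 bases, a length class in which 14.65% of all tested genes were higher. rdgB passed in 22 of 34 fits with a head left out. The photoreceptor median was 0.00.

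**Figure D2:**
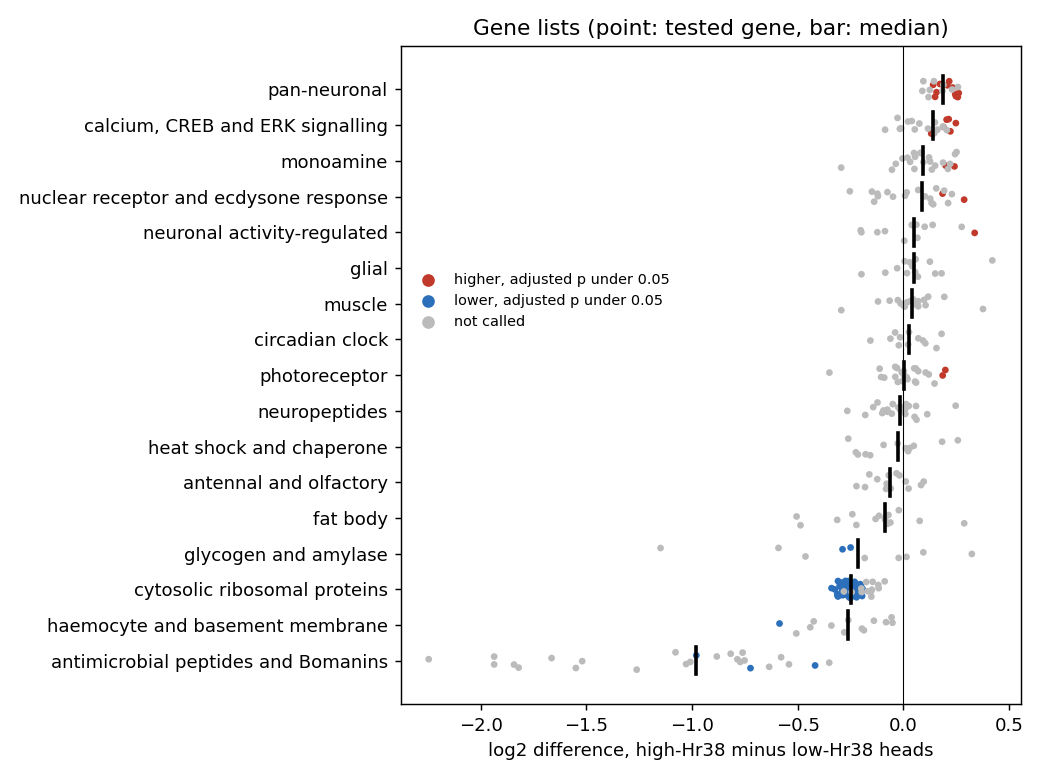
Log2 difference, high-Hr38 minus low-Hr38 heads, for each tested gene of 17 lists; each point is a gene, the black bar is the list's median, red and blue mark genes higher and lower at an adjusted p under 0.05 in edgeR's quasi-likelihood test. Pan-neuronal genes lie right of 0 (median 0.19) and cytosolic ribosomal protein genes left of it (median -0.25), while the antimicrobial list spreads widest (median -0.98).

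Cytosolic ribosomal protein genes, whose products build the ribosome, were lower in high-Hr38 heads. All 83 tested genes had negative values, and 70 passed, against 1.97% of all genes lower. Of all 10246 tested genes, 5742 had negative values. The median was -0.25 with a range of -0.34 to -0.09. RpS2 (FBgn0004867, 2L, 9896265 to 9897552), a small-subunit protein gene, had 785, 896 and 974 CPM in high-Hr38 heads and 849, 1049 and 1243 CPM in low-Hr38 heads. None of the 17 high-Hr38 heads lay above the mean of the low-Hr38 heads, although the ranges overlapped. RpS2 fell by 0.26 (SE 0.04; adjusted p = 0.0103, edgeR's quasi-likelihood test). RpL17 fell by 0.31, sta, another small-subunit gene, by 0.30 and RpL37a by 0.26. RpL3, RpL6, RpL8, RpL18 and RpL23A, all of the large subunit, were also among the 12 lower genes with the smallest p. Rack1, a ribosome-bound scaffold, fell by 0.29 and SsRbeta, a subunit of the complex at the endoplasmic reticulum translocon, by 0.27. Ribosomal protein transcripts took 4.92% to 6.97% of the counts in high-Hr38 heads (median 5.64%) and 5.67% to 8.35% in low-Hr38 heads (median 6.77%).

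The remaining gene among the 12 lower ones was CG9119. It had 6.84, 12.1 and 22.7 CPM in high-Hr38 heads and 10.4, 19.2 and 36.9 CPM in low-Hr38 heads, a fall of 0.72 on the log2 scale (SE 0.15). Its difference was -1.26 in naive Mid, -1.36 in naive High, -0.36 in shocked Mid, -0.45 in shocked High and -0.40 in shocked Low. The interaction of shocked against naive was 0.91 (SE 0.28; adjusted p = 0.999, edgeR's quasi-likelihood test) and did not pass.

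Antimicrobial peptide and Bomanin genes, effectors of the Imd and Toll pathways, had lower values with large errors. All 25 tested members had negative values with a median of -0.98, and 3 passed, against 1.97% of all genes lower. Of all 10246 tested genes, 5742 had negative values. An unadjusted p under 0.05 was reached by 19, against 11.7% of all genes lower at that threshold. Of the members, 23 were under 2000 bases, a class in which 3.37% of all tested genes were lower and the median was -0.08. In that class 1373 of 4921 genes had positive values. PGRP-SD, which encodes a peptidoglycan recognition protein, had 5.56, 33.5 and 96.8 CPM in high-Hr38 heads and 22.5, 65.8 and 129 CPM in low-Hr38 heads, and fell by 0.98 (SE 0.26; adjusted p = 0.0302, edgeR's quasi-likelihood test). The ranges overlapped widely, and PGRP-SD passed in 29 of 34 fits with a head left out. The Bomanin genes CG5791 and CG5778 fell by 0.72 (SE 0.16) and 0.42 (SE 0.11). Dpt, the diptericin gene, had -2.25 (SE 0.86, adjusted p = 0.124) with values from 0 to 143 CPM and from 0 to 154 CPM. The exons of PGRP-SD overlap those of CG7492. The list's 3 calls became 9 without naive Mid 2, 7 without naive Mid 7 and 5 without naive Mid 1 or shocked Mid 6. They became 2 without naive Mid 4 or naive High 1. Without both naive High heads at the ends of the Hr38 range, 1 of 26 tested members was lower. The summed level of the list was 421 to 2814 CPM (median 1155) in high-Hr38 heads and 732 to 3045 CPM (median 2153) in low-Hr38 heads.

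Genes of blood cells and basement membrane gave 1 call, a lower one, against 1.97% of all genes lower. All 13 tested members had negative values, with a median of -0.26, and NimB2, a nimrod-family gene, was lower by 0.59 (SE 0.17). This call, the only one of the list, held in 10 of 34 fits with a head left out (adjusted p up to 0.0891). Fat body genes had a median of -0.09 with 13 of 15 negative and 0 passing in edgeR (2 at an unadjusted p under 0.05). For the signs of both lists, the background was 5742 negative values among all 10246 tested genes. The summed blood cell list was 518 to 1358 CPM in high-Hr38 heads and 852 to 1712 CPM in low-Hr38 heads, and the summed fat body list 2681 to 14720 CPM and 3392 to 10180 CPM. The part of these cell types in the other differences was not tested.

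**Figure D3:**
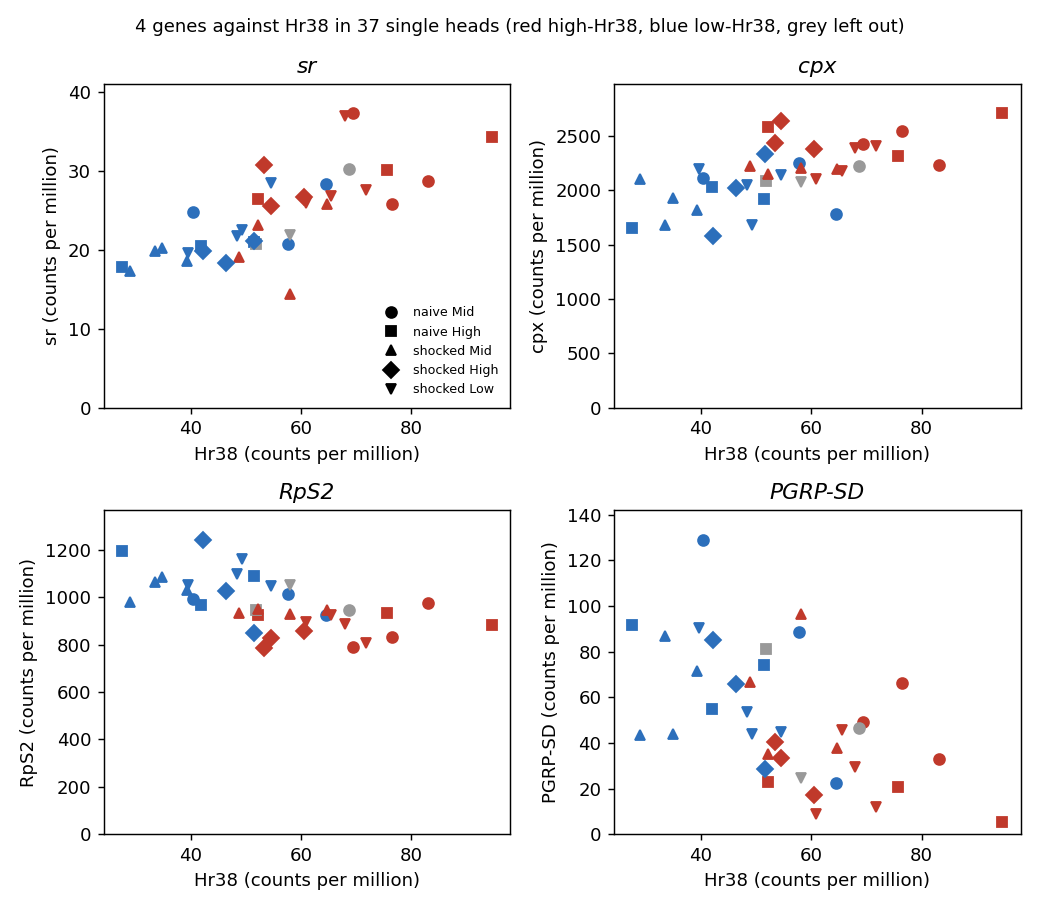
Levels (CPM) of sr, cpx, RpS2 and PGRP-SD against Hr38 (CPM) in 37 heads; symbols mark the 5 groups, red the high-Hr38, blue the low-Hr38 and grey the left-out heads. sr and cpx are higher and RpS2 and PGRP-SD lower in most high-Hr38 heads, with overlap in each panel.

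The 12 higher genes with the smallest p are given here one by one, with no test of any shared function. Ddr, a receptor tyrosine kinase gene of the discoidin domain family (2L, 6253123 to 6323466), had 25.2, 35.0 and 45.2 CPM in high-Hr38 heads and 21.2, 28.2 and 34.2 CPM in low-Hr38 heads. It rose by 0.29 (SE 0.06; adjusted p = 0.0138, edgeR's quasi-likelihood test). Camta, a calmodulin-binding transcription activator gene, rose by 0.26 (SE 0.05), and Ace, the acetylcholinesterase gene, by 0.23 (SE 0.05). Epac, a cAMP-activated exchange factor for the GTPase Rap, rose by 0.18, and RapGAP1, which inactivates Rap, by 0.17. RapGAP1 was positive in 4 of 5 groups and the other 11 genes in all 5, which is description, as the genes were picked on these groups pooled. pog (now smog), a G-protein-coupled receptor gene, rose by 0.27, and CG31708 (now DIP-zeta), an immunoglobulin-domain cell-surface gene, by 0.24. pigs, which encodes a protein of the Gas2 family, rose by 0.23. CG5937, CG12851, CG43778 and CG6700 completed the set, with 0.22, 0.23, 0.25 and 0.23. Camta had no annotated exon length, and CG31708 (3562 bases) and CG6700 (4511 bases) were under 5000 bases. The rest were over 5000 bases, up to 8473 in Ace, a class in which 14.65% of all tested genes were higher.

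The genes most like Hr38 were found by Pearson's r over 37 heads, on log2 CPM centred on each group's mean. The 5 highest were CG6700 (r = 0.82), Fas1 (0.79), CG42492 (0.79), DopEcR (0.75) and pog (0.75), against 0.61 for sr. Without the 2 heads farthest from the median of Hr38, r was 0.75, 0.71, 0.72, 0.68 and 0.70 for the 5 genes and 0.51 for sr. Fas1 encodes a cell adhesion protein and CG42492 (now OtopLa) an otopetrin proton channel. The genes were picked for their r, and all values of a head share its library and total count, so these are descriptions. CG6700 had 242, 306 and 347 CPM in high-Hr38 heads and 204, 254 and 319 CPM in low-Hr38 heads.

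Exon length was compared between the genes on each side, as a description. The 258 higher genes with an annotated length had a median of 7255 exon bases, the 194 lower genes 1231, and all tested genes 2039. Among 1379 genes of over 5000 bases, 202 were higher (14.65%), 1 was lower, and the median log2 difference was 0.11. Among 1737 genes of up to 1000 bases, 2 were higher, 61 were lower, and the median was -0.08. Of pan-neuronal genes over 5000 bases, 7 of 11 were higher with a median of 0.21, whereas muscle genes of that length gave 0 of 6 in edgeR and a median of 0.10. Ribosomal protein genes under 2000 bases had a median of -0.25 with 64 of 76 lower, against -0.08 and 166 of 4921 for all genes under 2000 bases. Neuropeptide genes under 2000 bases had a median of -0.02.

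The difference between long and short genes moved with Hr38 from head to head. The mean log2 CPM of genes over 5000 bases minus that of genes under 1000 bases had a median of 2.92 (2.55 to 3.10) in high-Hr38 heads and 2.67 (2.41 to 2.87) in low-Hr38 heads. With this score in the fit, no gene passed in edgeR (476 at an unadjusted p under 0.05). The pan-neuronal median was then 0.06 with 1 of 20 negative, and the ribosomal protein median -0.06 with 73 of 83 negative. Of all 10246 tested genes, 5400 were negative in that fit. With the ribosomal protein score in its place, no gene passed (630 at an unadjusted p under 0.05) and the pan-neuronal median was 0.06. These scores are made of genes of the same libraries, and the source of the length difference was not tested.

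**Figure D4:**
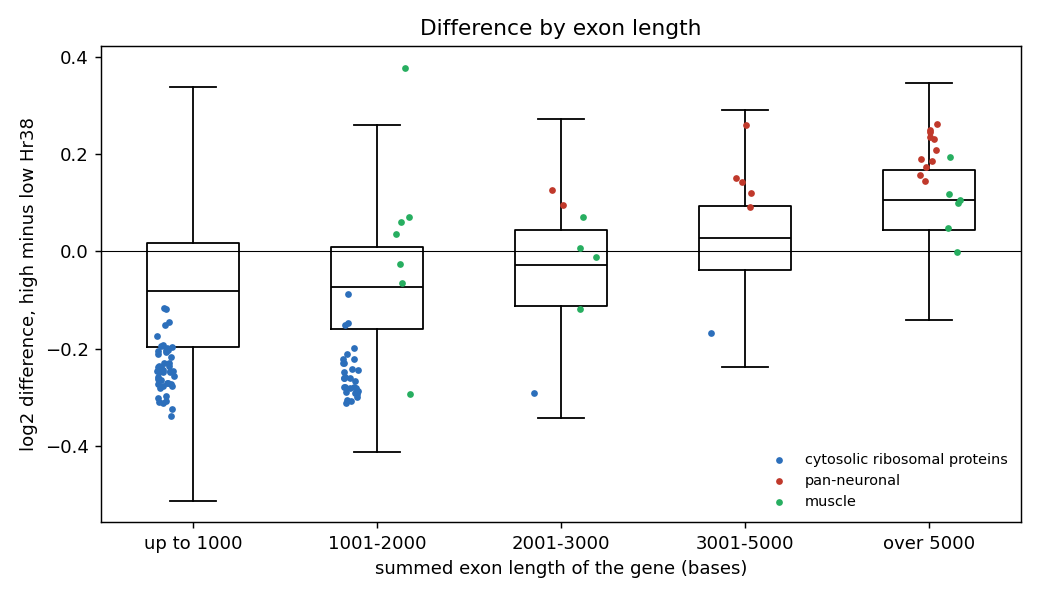
Log2 difference, high-Hr38 minus low-Hr38 heads, by the summed exon length of the gene in bases; boxes show quartiles with the median as a black line and whiskers to 1.5 times the interquartile range, and coloured points are members of lists. The median moves from -0.08 in genes of up to 1000 bases to 0.11 in genes of over 5000 bases.

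Whether the association differed between naive and shocked flies, or among the 5 groups, was tested with interaction terms. In edgeR 0 of 10246 genes passed for shocked against naive (0%), with 387 genes (3.78%) at an unadjusted p under 0.05, and 0 passed for heterogeneity over the groups (0%), with 405 (3.95%). DESeq2 also gave 0 for both. The smallest p for shocked against naive belonged to CG18643, Adgf-A and CG12655, none of which passed. CG18643 (now Dtd) had positive differences in naive Mid (0.66) and naive High (0.86) and negative ones in shocked Mid (-0.37), shocked High (-0.76) and shocked Low (-0.82), with an interaction of -1.41 (SE 0.30; adjusted p = 0.521). For heterogeneity the smallest p belonged to CoVIII, Adgf-A and CG33108, with adjusted p = 0.979 for each. Leaving out shocked High 6 gave 28 genes for heterogeneity.

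The list medians kept their sign in each group for the pan-neuronal and the ribosomal protein genes, with sizes that varied. The pan-neuronal median was 0.15 in naive Mid, 0.33 in naive High, 0.07 in shocked Mid, 0.28 in shocked High and 0.15 in shocked Low. The ribosomal protein median was -0.10, -0.35, -0.08, -0.36 and -0.36 in the same order. The antimicrobial median was -2.69 in naive High and between -1.18 and -0.32 in the other groups. In naive High the mean log2 CPM of the antimicrobial list was 2.60, 2.27 and 1.67 in the 3 high-Hr38 heads and 5.48, 4.99 and 4.73 in the 3 low-Hr38 heads, with no overlap. In naive Mid it was 5.18, 2.75 and 2.40 against 4.77, 5.00 and 2.05, which overlapped.

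**Figure D5:**
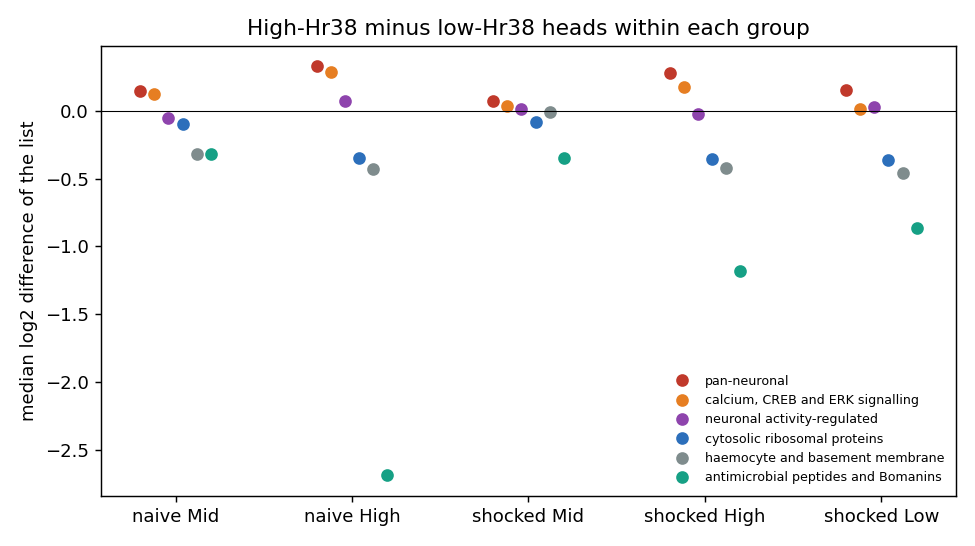
Median log2 difference, high-Hr38 minus low-Hr38 heads, of 6 gene lists within each of the 5 groups; each point is a list's median. The antimicrobial list reaches -2.69 in naive High, while pan-neuronal medians lie between 0.07 and 0.33 and ribosomal protein medians between -0.36 and -0.08.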

How the data were processed

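The values were raw counts of reads on exons per gene, deposited by the authors. Per the series design text, adaptors were trimmed with Trimmomatic, reads were aligned with STAR to dm6, non-primary alignments and those with mapping quality below 8 were removed, and HTSeq-count counted reads. No source used here gives tool versions or strand. The table held 17559 genes; 2 columns matched no label and were not used, and 2 labelled shocked High heads were not analysed here.

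Genes were kept by filterByExpr by group, scaled by TMM and tested with edgeR 4.0.16 in R 4.3.3 (quasi-likelihood, group as block, Benjamini-Hochberg over all genes other than Hr38, threshold 0.05); DESeq2 1.42.0 and limma 3.58.1 gave alternatives. The median SE of a log2 difference was 0.0835. The fit was tried on simulated data with 200 changed genes. Genes were drawn independently there, so the simulation cannot speak to genes that move together over heads. Log2 CPM used a prior count of 2. Positions and exon lengths are from Ensembl release 115; symbols without a current identifier have none. A list's score averages log2 CPM over its tested members. p-values measure the spread between single heads.

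The heads, the members and the gene lists were chosen with earlier results of these data known. Named genes were the 12 higher and 12 lower with the smallest p among those passing, every tested activity-regulated gene, up to 3 passing members of each other list, the 5 genes with the highest r with Hr38, and the 3 with the smallest p in each interaction test; other list members were named after their values were seen. Alternatives were other scalings, filters, covariates and tools, Hr38 as a continuous covariate, naive or shocked heads alone and each head left out. Promoter sequences were not used here. Replicate numbers of the sample titles were checked for pairing, and no pairing by them was seen.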

Additional observations from a re-analysis of the deposited data

Results flagged for a closer look

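Total counts of 2 heads and a list score of 1 head stood apart from the rest of their group by the gap to the nearest head, among 100 sets examined, and chance flags about 1 in 20. Naive Mid 1, a low-Hr38 head, had 6.096 M counts (megacounts) against 7.375 to 8.332 M in the other naive Mid heads. Naive High 3, also a low-Hr38 head, had 11.32 M against 6.058 to 8.225 M. Shocked Low 8, the high-Hr38 head with the highest Hr38 of its group, had a mean log2 CPM of 3.471 over the blood cell and basement membrane list against 4.819 to 5.627 in the other shocked Low heads; without it 292 genes passed.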

How the results depend on the processing

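The 468 calls (266 higher, 202 lower) became 657 (445, 212) in DESeq2, 490 (296, 194) in limma-voom, 530 (364, 166) with RLE size factors, 335 (205, 130) without a filter on low counts, 404 (230, 174) with log2 total count as a covariate, 470 (286, 184) with heads ranked by TMM-scaled CPM and 1058 (577, 481) with log2 CPM of Hr38 as a covariate over 37 heads. Of the 468 genes, 448 were shared with DESeq2 and 321 with the TMM-scaled ranking. In edgeR there were 0 calls in either direction, 0 pan-neuronal genes higher and 0 ribosomal protein genes lower with naive heads only, with shocked heads only, and with the pan-neuronal, long minus short, ribosomal protein or antimicrobial score as a covariate (1478, 1151, 492, 476, 630 and 1206 genes at an unadjusted p under 0.05). A replicate block beside group also gave 0 calls (1583 at an unadjusted p under 0.05), with a pan-neuronal median of 0.19 and a ribosomal protein median of -0.21. Same-numbered heads had a median correlation of 0.028 (lowest -0.454), and 6 of 37 heads correlated best with their own number. These numbers are those of the sample titles, which differ in part from the library names. The check showed no pairing by title number and cannot exclude a batch shared in another order. The last 3 of those 4 scores, and the fit without both heads at the ends of the naive High range, were chosen after seeing the data; that fit gave 80 calls (40, 40), 27 ribosomal protein genes lower and 2 pan-neuronal genes higher. Leaving out each head in turn gave 174 to 786 calls, 88 to 499 higher, 86 to 287 lower, 6 to 15 pan-neuronal genes higher, 48 to 74 ribosomal protein genes lower, 0 to 28 for heterogeneity and 0 to 0 for shocked against naive. Pan-neuronal calls were 6 without naive High 1, naive High 7, shocked High 2, shocked Low 8 or shocked Low 9, and 7 without shocked High 3. For named genes, 2552 alternative values stayed on their side of the threshold with no called value changing sign, 435 kept direction but no longer passed, and 2 reversed, both with the ribosomal protein score: Pgm at 0.014 and NimB2 at 0.061. The cause was not tested. With 206 to 692 reads of Hr38 per head, counting error alone can exchange heads next to the dividing line.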
